A study of Homo sapiens with 28 samples.

Results

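The genes described here are 40 genes of the synaptic vesicle, of the neuronal cytoskeleton and of the synaptic membrane. They were chosen by name, as a list of gene symbols, with earlier results of these data known. The shares of members called, set beside those of all genes below, are thus not an independent test. The symbols were looked up in the deposited table of 35488 genes, where 39 of the 40 were found. The neurofilament gene NEFM is not analysed here. Of the 39 genes, 35 had a mean of at least 10 normalised counts over all 28 libraries and were tested, and the other 4 (STMN2, NEFL, NEFH and ELAVL4) are given as reads.

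RNA was measured by sequencing in SK-N-MC, an established cell line from Ewing sarcoma, a bone and soft tissue tumour driven by the fusion transcription factor EWS-FLI1. All libraries came from SK-N-MC cells grown with 100 ng/ml doxycycline, which switches on a short hairpin RNA. At each of 24 h and 48 h there were 3 libraries with shFLI1 (genotype label EWS-FLI1 knockdown), 3 with shCHD4#1 and 3 with shCHD4#2 (genotype label CHD4 knockdown, 2 hairpins against the same chromatin remodeller) and 5 with the control hairpin shScramble. The genotype label of shScramble reads wildtype at 24 h but CHD4 knockdown at 48 h, against the titles, and CHD4 in the 48 h shScramble libraries had a median of 12105 normalised counts, against 12037 at 24 h. The control cells thus carry a hairpin and doxycycline too, 1 parental cell line stands behind every library, and the labels do not say whether the hairpin lines were single clones.

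A neuron releases transmitter when a vesicle, held in reserve by synapsins and loaded with SV2 and synaptophysin, is fused to the plasma membrane by SNARE proteins under the control of synaptotagmins. Axons and dendrites are shaped by tubulins, by microtubule-binding proteins such as tau, MAP2 and doublecortin, and by neurofilaments, and synapses are held together by adhesion proteins such as neurexins, neuroligins and calsyntenins. Ewing sarcoma cells are known to express part of this neural repertoire although they are not neurons.

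The hairpins lowered their targets in all libraries. FLI1, the gene that gives the fusion its DNA-binding end, had a median of 1815 normalised counts with shFLI1 and 4062 with shScramble at 24 h, and 1612 with shFLI1 and 3920 with shScramble at 48 h. With the CHD4 hairpins FLI1 had medians of 3677 (shCHD4#1) and 3927 (shCHD4#2) at 24 h, and 3673 and 2945 at 48 h. Its range with shCHD4#2 at 48 h was 2634.5 to 3342.9, against 3091.4 to 4306.2 with shScramble. CHD4 had medians of 2996 with shCHD4#1 and 2975 with shCHD4#2 at 24 h, and 3126 with shCHD4#1 and 2727 with shCHD4#2 at 48 h. Libraries held 46102707 to 64775441 reads. In replicates 1 and 2 of both CHD4 hairpins and of shScramble, 0.313 to 0.388% of reads fell on processed pseudogenes, against 0.223 to 0.283% in the other 16 libraries, and these are called the first and second kind of library below. All 3 shFLI1 libraries at each time were of the second kind. At 48 h the share of mitochondrial ribosomal RNA was 22.1 to 22.5% with shFLI1 and 16.2 to 18.0% with shScramble. Of 12 Ewing sarcoma markers, which include the targeted FLI1 itself, 12 were lower with shFLI1 at 48 h (median log2 −2.84). Of 10 mesenchymal stromal markers 7 were higher and 1 lower in the same comparison. Their summed level was 404140 to 668000 normalised counts with shFLI1 at 48 h, against 60951 to 78703 with shScramble, and FN1 alone averaged 377860 with shFLI1 and 30076 with shScramble, while COL1A1 averaged 383 with shFLI1 and 1095 with shScramble. The part of these shifts in the results below was not tested. Among mature neuron markers, SLC17A6, SLC32A1 and GAD2 averaged at most 2.08 normalised counts in every group. Of the 5 neuron markers tested, 2 were higher and 1 lower with shFLI1 at 24 h, and none was higher and 2 were lower at 48 h. The summed level of all 9 neuron markers in the table was 250.4 to 282.9 with shFLI1 at 48 h, against 534 to 837.5 with shScramble, and was carried mainly by SLC17A7 (117 with shFLI1, 422 with shScramble) and CHAT (59.6 with shFLI1, 130.3 with shScramble), while GAD1 averaged 47.9 with shFLI1 and 28.8 with shScramble. Of the Schwann and glial markers, OLIG2 averaged at most 2.06 normalised counts in every group, and 2 of 3 tested were higher with shFLI1 at 48 h. Exons of 15 members overlap those of a gene on the other strand and those of 5 a gene on the same strand. The strand setting of the counting is not given in the sources used here, so reads of such pairs cannot be told apart. In bulk RNA fewer cells with a transcript and less transcript per cell cannot be told apart.

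The promoter windows of 27 of the members are in RefSeq (GRCh38.p14). Each runs from 250 bases before to 50 bases after a start given there, and distances below are from that start. It is not always the outermost start of the gene. The MAP2 window is at chr2:209661246-209661545, while the gene begins at 209424058 on the forward strand. Those of ELAVL4, NSG1, SV2A and STMN3, among others, also lie inside the gene. Other starts of the members were not searched. The windows were searched on both strands for 4 motifs. These were GGAAGGAA, a repeat of the GGAA unit that EWS-FLI1 is known to bind, CCGGAAGT, the motif of single ETS factor sites, the core of the element bound by REST, a repressor of neuronal genes, and TATAAA, the TATA box. The first pair shares the letters GGAA. The windows of 4 members held a match, and these 4 are shown because the genes behind them moved in different directions. SYN1, a synapsin gene on the reverse strand at chrX:47619808-47620107, held the REST element core 230 bases before its start (capitals), a motif found in 0.057% of all 35116 windows. SYN2, a synapsin gene on the forward strand at chr3:12004138-12004437, held GGAAGGAA on its other strand (TTCCTTCC in capitals), found in 3.67% of windows. DCX (doublecortin, reverse strand, chrX:111412143-111412442) and HAP1 (huntingtin-associated protein, reverse strand, chr17:41734594-41734893) held TATAAA (capitals), found in 11.5% of windows, 190 and 30 bases before the start. CCGGAAGT, found in 4.14% of windows, was in none of the 27. These are matches of letters, not measured binding.
SYN1: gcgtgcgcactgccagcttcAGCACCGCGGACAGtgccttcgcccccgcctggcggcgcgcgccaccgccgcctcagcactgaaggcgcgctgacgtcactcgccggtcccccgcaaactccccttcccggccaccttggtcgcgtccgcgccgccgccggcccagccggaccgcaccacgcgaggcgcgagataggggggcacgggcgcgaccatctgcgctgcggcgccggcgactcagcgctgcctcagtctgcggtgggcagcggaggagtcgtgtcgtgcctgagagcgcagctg
SYN2: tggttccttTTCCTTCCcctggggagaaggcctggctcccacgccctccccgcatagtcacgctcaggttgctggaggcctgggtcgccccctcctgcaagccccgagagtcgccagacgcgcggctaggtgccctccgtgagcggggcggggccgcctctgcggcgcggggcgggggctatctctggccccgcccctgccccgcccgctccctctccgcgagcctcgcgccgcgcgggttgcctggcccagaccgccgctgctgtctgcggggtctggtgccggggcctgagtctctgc
DCX: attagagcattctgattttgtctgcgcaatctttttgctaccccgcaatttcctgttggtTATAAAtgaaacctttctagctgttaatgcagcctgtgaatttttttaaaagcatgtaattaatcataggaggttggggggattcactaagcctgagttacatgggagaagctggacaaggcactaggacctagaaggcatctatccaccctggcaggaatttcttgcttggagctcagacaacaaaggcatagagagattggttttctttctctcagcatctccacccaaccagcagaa
HAP1: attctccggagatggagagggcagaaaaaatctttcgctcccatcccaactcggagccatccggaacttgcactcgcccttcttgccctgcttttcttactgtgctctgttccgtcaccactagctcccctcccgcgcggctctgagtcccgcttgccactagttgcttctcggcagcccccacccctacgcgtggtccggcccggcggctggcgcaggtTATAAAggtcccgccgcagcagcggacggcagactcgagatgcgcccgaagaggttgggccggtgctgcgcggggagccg

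Before any knockdown effect is considered, the members differed widely in level. Per kilobase of exon, the highest mean levels in shScramble libraries at 48 h were 1908 normalised counts for the calsyntenin CLSTN2, 1376 for the stathmin STMN3, 1312 for HAP1, 808 for CLSTN1, 778 for beta-III tubulin TUBB3 and 657 for alpha-internexin INA. Tau (MAPT) followed at 479 and neuroligin NLGN1 at 384. At the other end of the tested members SYT17 stood at 0.0474 and NRXN3 at 0.718 normalised counts per kilobase. The control cells thus held much RNA for single calsyntenins, stathmins and tubulins, and for SYT17 almost none.

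EWS-FLI1 knockdown moved the members in both directions at once. With shFLI1 at 24 h, 12 of the 35 tested members were higher and 10 lower than with shScramble (limma, Benjamini-Hochberg adjusted p under 0.05), which is 62.9% of them, where 46.7% of all 21025 tested genes were called (24.2% higher, 22.5% lower). After 48 h of shFLI1, 14 were higher and 12 lower, 74.3% of the members against 63.9% of all genes (32.2% higher, 31.7% lower). The median log2 fold change of the members was 0.15 at 24 h and 0.09 at 48 h, beside medians of 0.0038 and 0.0090 over all tested genes. The members did not move as 1 block. In 5 groups of relatives (synaptotagmins, SV2 proteins, synapsins, calsyntenins, and MAP2 with tau) 1 gene was lower with shFLI1 at 24 h and another higher. Log2 fold changes are given below with their standard error (SE, after ± in brackets), and means with their SD (n = 3 for each knockdown and 5 for shScramble).

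**Figure D1:**
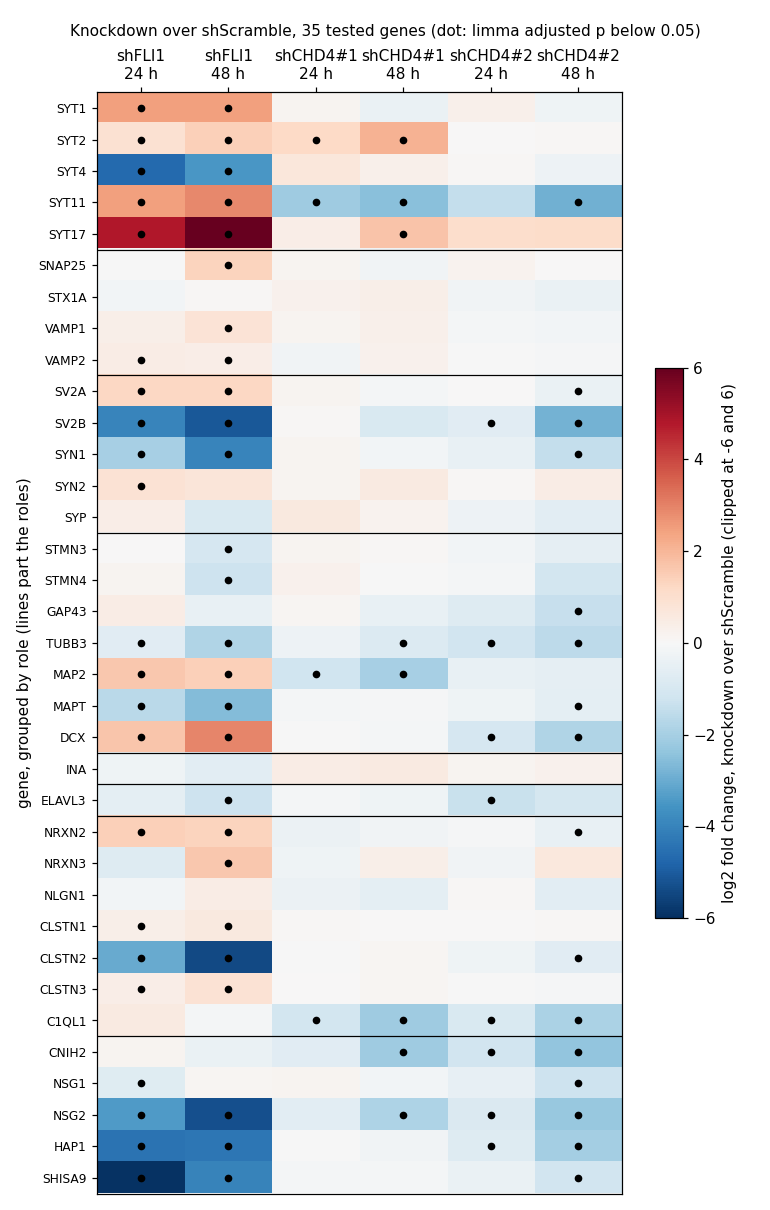
Colours show the log2 fold change of each knockdown over shScramble for the 35 tested genes (rows, grouped by role) in 6 comparisons (columns), and dots mark an adjusted p below 0.05. The shFLI1 columns hold both deep reds, such as SYT17 with 8.33 at 48 h, and deep blues, such as CLSTN2 with −5.40, while the shCHD4#2 column at 48 h holds 16 dots, all for lower genes.

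The synaptotagmins split, with 4 higher and 1 lower at both times of shFLI1. SYT1, the fast calcium sensor of transmitter release, had 282, 573 and 394 normalised counts with shFLI1 at 24 h, against 115, 138, 53.7, 40.1 and 56.6 with shScramble. At 48 h SYT1 had 389.8, 373 and 542 with shFLI1, against 103, 90.7, 68.2, 56.0 and 74.2 with shScramble. All shFLI1 libraries were above all control libraries at both times, with log2 fold changes of 2.45 (SE 0.43, adjusted p = 0.000329) and 2.47 (SE 0.24, adjusted p = 5.37e-07). SYT2, the fast sensor of brainstem and motor synapses, was higher by 0.89 and 1.42 on the log2 scale, with means of 1139 ± 71.8 with shFLI1 and 428 ± 71.2 with shScramble at 48 h.

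SYT11, a synaptotagmin that does not bind calcium and acts in membrane retrieval, had 39.3, 80.4 and 69.6 normalised counts with shFLI1 at 24 h, against 3.71, 4.86, 23.3, 11.6 and 18.1 with shScramble. At 48 h the values were 73.2, 108 and 158 with shFLI1, against 8.93, 10.3, 17.3, 14.9 and 20.7 with shScramble. Its log2 fold changes were 2.48 (SE 0.59, adjusted p = 0.00323) and 2.88 (SE 0.48, adjusted p = 0.000107), and neither time had an overlap of the groups. SYT17, which lacks the membrane-spanning segment of other synaptotagmins, was close to unread in control cells. Its normalised counts were 31.0, 41.3 and 26.5 with shFLI1 at 24 h, against 0, 1.62, 0, 0 and 0 with shScramble, and 504, 373 and 325 with shFLI1 at 48 h, against 1.79, 0, 0, 0 and 0 with shScramble. In reads, 91 were found with shFLI1 and 2 with shScramble at 24 h, a ratio per unit depth of 83.5 (exact binomial 95% interval 22.5 to 700.2). At 48 h, 1064 reads with shFLI1 against 2 with shScramble gave 1005 (interval 277.5 to 8309). These intervals cover counting error only, and the fitted log2 values of 4.78 and 8.33 depend on the pseudocount of 1.

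SYT4, a synaptotagmin of dense-core vesicles, went the other way. It had 3.10, 1.12 and 3.32 normalised counts with shFLI1 at 24 h, against 68.6, 42.1, 115, 69.6 and 167 with shScramble. At 48 h SYT4 had 5.91, 6.90 and 3.11, against 78.6, 26.8, 105, 70.9 and 93.8 with shScramble. Every shFLI1 library was below every control library, and the log2 fold changes were −4.65 (SE 0.38, adjusted p = 2.79e-07) and −3.51 (SE 0.48, adjusted p = 1.55e-05).

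Of the 4 SNARE genes, which drive the fusion itself, 1 was higher with shFLI1 at 24 h and 3 at 48 h, and none was lower. SNAP25, the SNARE of the plasma membrane, had 472, 653 and 661 normalised counts with shFLI1 at 24 h, against 651, 482, 647, 689.6 and 525 with shScramble, so the groups overlapped. At 48 h SNAP25 had 1372, 1520.2 and 1105 with shFLI1, against 474, 392, 550.4, 605 and 664 with shScramble, and every shFLI1 library was above every control (1.32 ± 0.18, adjusted p = 1.63e-05, log2 fold change). Of the vesicle SNAREs, VAMP1 averaged 389.9 ± 86.8 with shFLI1 and 219 ± 26.3 with shScramble at 48 h (log2 0.81 ± 0.16, adjusted p = 0.000354), and this call was not made in the authors' deposited table (adjusted p = 1). VAMP2 differed by 0.45 (SE 0.14, adjusted p = 0.0139) on the log2 scale at 24 h and by 0.38 (SE 0.15, adjusted p = 0.0349) at 48 h. The VAMP2 call at 24 h ended without shFLI1 replicate 1 (adjusted p = 0.0549), and at 48 h it ended without any 1 of the 3 shFLI1 libraries (adjusted p 0.0542 to 0.123), without shScramble replicate 1 (0.0744), with TMM normalisation (0.0533), with median centring (0.117), with library kind as a term (0.0581) and in the authors' deposited table (1). STX1A, the other plasma membrane SNARE, was not called and averaged 1130.0 ± 80.1 with shFLI1 and 1090.2 ± 291 with shScramble at 48 h.

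Among the vesicle proteins, the SV2 paralogs moved in opposite directions with shFLI1. SV2A, the vesicle glycoprotein that binds the drug levetiracetam, averaged 2616 ± 288 normalised counts with shFLI1 and 1108 ± 153 with shScramble at 24 h, and 2689 ± 427 with shFLI1 and 1139 ± 153 with shScramble at 48 h (log2 1.24 ± 0.13, adjusted p = 2.74e-06 and 1.24 ± 0.14, adjusted p = 2.02e-06). SV2B, its paralog, had 167, 131 and 188 normalised counts with shFLI1 at 24 h, against 2649, 4070.2, 1939.7, 2629 and 1927 with shScramble. At 48 h SV2B had 28.3, 20.7 and 855 with shFLI1, against 1897, 3843, 2775, 2889.5 and 2616 with shScramble. All shFLI1 libraries lay below the controls, but replicate 3 at 48 h was far above the other 2. The log2 fold changes were −3.98 (SE 0.20, adjusted p = 3.42e-09) and −5.07 (SE 0.83, adjusted p = 9.19e-05), and the value at 48 h was −6.76 without shFLI1 replicate 3, −4.33 without replicate 1 and −4.11 without replicate 2.

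SYN1, the synapsin whose promoter window holds the REST element core, had 134, 81.5 and 76.3 normalised counts with shFLI1 at 24 h, against 369, 397, 354, 354 and 411 with shScramble. At 48 h SYN1 had 23.6, 24.1 and 18.7 with shFLI1, against 304, 436, 335, 359 and 365 with shScramble. The groups were apart at both times, with log2 fold changes of −1.99 (SE 0.17, adjusted p = 3.43e-07) and −3.96 (SE 0.20, adjusted p = 1e-09). SYN2, the synapsin whose window holds GGAAGGAA, was higher at 24 h, where it averaged 32.9 ± 4.84 with shFLI1 and 17.9 ± 5.38 with shScramble (log2 0.87 ± 0.24, adjusted p = 0.00834), and was not called at 48 h (27.6 ± 2.03 with shFLI1, 16.8 ± 4.51 with shScramble). Synaptophysin SYP was not called, with 106, 89.7 and 97.6 normalised counts with shFLI1 at 48 h, against 92.9, 82.5, 310.3, 332 and 284 with shScramble, where the 2 low controls are those of the first kind. Against controls of the second kind alone its log2 fold change was −1.65 (adjusted p = 3.88e-06), and it was called without shScramble replicate 1 (−1.18, adjusted p = 0.0184) or replicate 2 (−1.22, 0.0105).

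**Figure D2:**
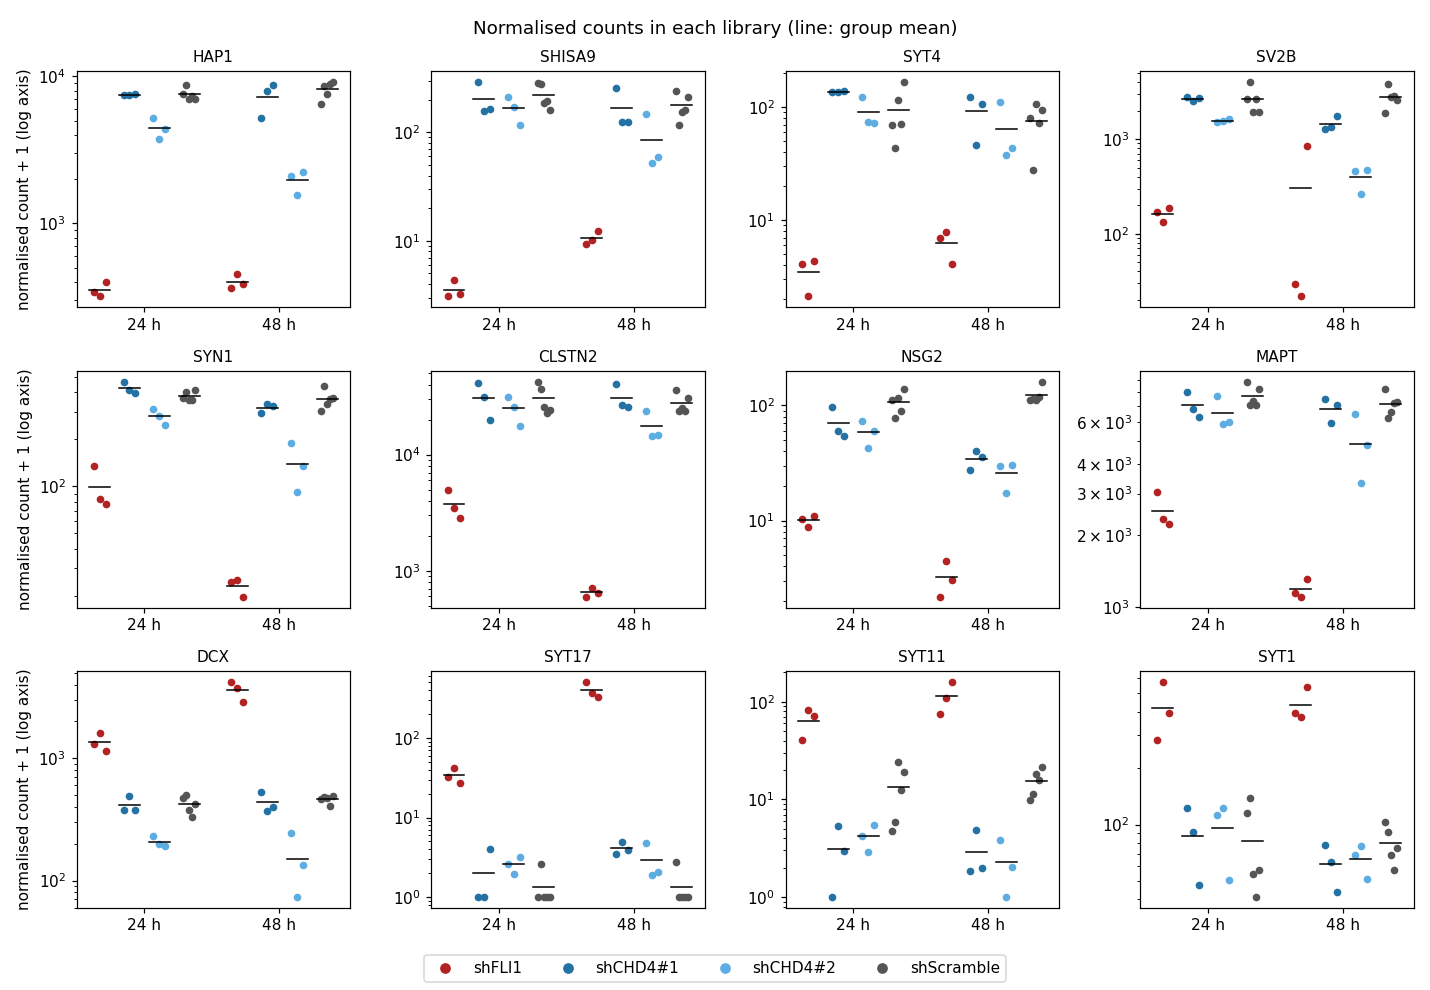
Each point is 1 library and each line a group mean of normalised counts plus 1, on log axes, for the 12 members that passed with shFLI1 at an absolute log2 fold change of at least 2. At each time the shFLI1 points lie apart from all other libraries, except for SV2B at 48 h, where shFLI1 replicate 3 stands above its fellows (855 against 28.3 and 20.7).

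Among the microtubule and growth cone genes, 2 were higher and 2 lower with shFLI1 at 24 h, and 2 were higher and 4 lower at 48 h, of 7 tested. Tau (MAPT), which stabilises axonal microtubules, had 3045, 2341 and 2243 normalised counts with shFLI1 at 24 h, against 8871, 7070.0, 7383, 7059.8 and 8239 with shScramble. At 48 h MAPT had 1139.8, 1103 and 1309 with shFLI1, against 8308, 6233, 6639.8, 7230.2 and 7319 with shScramble. All shFLI1 libraries were lower (−1.61 ± 0.13, adjusted p = 2.87e-07 at 24 h and −2.59 ± 0.17, adjusted p = 8.31e-09 at 48 h, log2 fold change). MAP2, the dendritic relative of tau, was higher, with means of 106 ± 35.6 with shFLI1 and 34.3 ± 11.3 with shScramble at 24 h (log2 1.61 ± 0.35, adjusted p = 0.00176), and 134 ± 43.0 with shFLI1 and 51.1 ± 22.3 with shScramble at 48 h (log2 1.44 ± 0.39, adjusted p = 0.00490, and adjusted p = 0.0553 in the authors' deposited table).

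DCX, doublecortin, the microtubule protein of migrating young neurons, had 1310.0, 1607 and 1136 normalised counts with shFLI1 at 24 h, against 475, 503, 379.6, 331 and 425 with shScramble. At 48 h DCX had 4188, 3750.0 and 2878 with shFLI1, against 465, 481, 472, 407 and 487 with shScramble. Its log2 fold changes were 1.68 (SE 0.16, adjusted p = 1.08e-06) and 2.95 (SE 0.27, adjusted p = 3.57e-07), with no overlap of the groups. TUBB3, the beta tubulin of neurons, was lower, at 2032 ± 176 with shFLI1 and 3289.6 ± 691 with shScramble at 24 h and 963 ± 127 with shFLI1 and 3449 ± 916 with shScramble at 48 h (log2 −0.67 ± 0.17, adjusted p = 0.00563 and −1.80 ± 0.20, adjusted p = 1.65e-06). No shFLI1 library reached a control.

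The stathmins, which bind tubulin and destabilise microtubules, differed too. STMN3 had 4626, 4215 and 4109 normalised counts with shFLI1 at 24 h, against 3666, 3058, 4639.8, 4821 and 5467 with shScramble, within the range of the controls. At 48 h STMN3 had 2197, 1888 and 1983 with shFLI1, against 2813, 2722, 5146, 5207 and 4972 with shScramble, all below the controls (−0.99 ± 0.22, adjusted p = 0.00111, log2 fold change). STMN4 was lower at 48 h (log2 −1.24 ± 0.48, adjusted p = 0.0336), a call that ended without shFLI1 replicate 2 (adjusted p = 0.182), without shScramble replicate 3, 4 or 5 (0.0742, 0.0641 and 0.0760), with only the groups compared (0.0571) and in the authors' deposited table (0.796). STMN2, under the filter, had 26 reads with shFLI1 and 3 with shScramble at 24 h, a ratio per unit depth of 15.9 (interval 4.88 to 82.1), and 52 against 1 at 48 h, a ratio of 98.2 (interval 16.9 to 3954). GAP43, a growth cone protein, was not called and averaged 16.0 ± 2.76 with shFLI1 and 23.5 ± 9.16 with shScramble at 48 h.

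Of the intermediate filament genes only INA could be tested, and it was not called against shScramble with any hairpin. INA had 1320.5, 1205 and 959 normalised counts with shFLI1 at 48 h, against 1333, 541, 2830.5, 3064 and 2839.5 with shScramble. The first 2 controls, of the first kind of library, were low, so the groups overlapped. Against controls of the second kind alone its log2 fold change was −0.80 at 24 h and −1.34 at 48 h (adjusted p = 0.000307 and 1.08e-05), and without shScramble replicate 2 it was −0.58 and −1.06 (0.0354 and 0.00173). NEFL, the light neurofilament, had 16 reads with shFLI1 and none with shScramble at 48 h, at least 10.1-fold higher against a floor of 3 reads over the group, but all 16 were in replicate 3. NEFH, the heavy neurofilament, had 4 reads in each of those groups, a ratio per unit depth of 1.89 (interval 0.352 to 10.1). Of the RNA-binding proteins that mark neurons, ELAVL3 averaged 18.2 ± 2.37 with shFLI1 and 47.6 ± 16.6 with shScramble at 48 h (log2 −1.26 ± 0.41, adjusted p = 0.0146), and the call ended without shFLI1 replicate 2 (adjusted p = 0.0512) and in the authors' deposited table (0.318). ELAVL4 had 7 reads with shFLI1 and 9 with shScramble at 48 h, a ratio per unit depth of 1.47 (interval 0.465 to 4.43).

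Of the 7 adhesion genes, 3 were higher and 1 lower with shFLI1 at 24 h, and 4 were higher and 1 lower at 48 h. CLSTN2, a calsyntenin of the postsynaptic membrane and the member with the highest level in control cells, had 4970.0, 3469 and 2862 normalised counts with shFLI1 at 24 h, against 42387, 37037, 25879, 22878 and 24133 with shScramble. At 48 h CLSTN2 had 595, 712 and 639 with shFLI1, against 36148, 23715, 25009, 23559 and 30813 with shScramble. The log2 fold changes were −3.01 (SE 0.27, adjusted p = 7.23e-07) and −5.40 (SE 0.19, adjusted p = 6.12e-11). Its paralogs were higher by small amounts: CLSTN1, a kinesin cargo adaptor, by 0.35 (SE 0.072, adjusted p = 0.00105) and 0.59 (SE 0.10, adjusted p = 0.000120), and CLSTN3 by 0.38 (SE 0.10, adjusted p = 0.00786) and 0.86 (SE 0.11, adjusted p = 8.45e-06), on the log2 scale at 24 h and 48 h. Neither 48 h call was made in the authors' deposited table (adjusted p = 1 for CLSTN1 and 0.291 for CLSTN3). No member was called there with an absolute log2 fold change under 0.92. In normalised counts the fall of CLSTN2 left it below CLSTN1, with 44.4 per kilobase for CLSTN2 and 1217 for CLSTN1 with shFLI1 at 48 h.

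NRXN2, a presynaptic neurexin, averaged 2142 ± 82.1 normalised counts with shFLI1 and 784 ± 65.2 with shScramble at 24 h, and 2125 ± 125 with shFLI1 and 842 ± 80.2 with shScramble at 48 h (log2 1.45 ± 0.11, adjusted p = 1.12e-07 and 1.34 ± 0.13, adjusted p = 5.82e-07). NRXN3 had 9.31, 3.35 and 9.95 with shFLI1 at 24 h, against 15.8, 15.4, 9.11, 10.5 and 13.2 with shScramble. At 48 h NRXN3 had 21.3, 17.2 and 92.4 with shFLI1, against 17.9, 18.6, 6.10, 5.60 and 7.63 with shScramble, with 1 shFLI1 library far above the rest and another within the control range. Its call at 48 h (log2 1.63 ± 0.56, adjusted p = 0.0193) ended without shFLI1 replicate 3 (log2 0.90, adjusted p = 0.152). Neither NLGN1, a neuroligin that binds neurexins, nor C1QL1, a secreted synapse organiser, was called with shFLI1. NLGN1 averaged 5092 ± 305 with shFLI1 and 3902 ± 1019.9 with shScramble at 48 h, and C1QL1 124 ± 18.5 with shFLI1 and 134 ± 15.6 with shScramble.

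Receptor auxiliary and trafficking genes were mostly lower, 4 of 5 with shFLI1 at 24 h, 3 of 5 at 48 h and none higher. HAP1, which links cargo to motor proteins, had 338, 317 and 398 normalised counts with shFLI1 at 24 h, against 7597, 8781, 7051, 7351 and 6999 with shScramble. At 48 h HAP1 had 365, 453 and 385 with shFLI1, against 6446, 8670.2, 7569, 8917 and 9235 with shScramble. Its log2 fold changes were −4.43 (SE 0.11, adjusted p = 7.3e-12) and −4.34 (SE 0.17, adjusted p = 1.29e-10). SHISA9, an auxiliary subunit of AMPA-type glutamate receptors, had 2.07, 3.35 and 2.21 with shFLI1 at 24 h, against 286, 280.4, 184, 195 and 159 with shScramble. At 48 h SHISA9 had 8.27, 9.20 and 11.4 with shFLI1, against 240.2, 115, 155, 159 and 213 with shScramble. All shFLI1 libraries were below the controls, with log2 fold changes of −5.95 (SE 0.27, adjusted p = 1.67e-09) and −4.02 (SE 0.35, adjusted p = 1.68e-07).

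NSG2, an endosomal protein of receptor recycling, had 9.31, 7.82 and 9.95 normalised counts with shFLI1 at 24 h, against 111, 76.2, 114, 87.5 and 137 with shScramble. At 48 h NSG2 had 1.18, 3.45 and 2.08 with shFLI1, against 109.8, 113, 109.9, 117 and 159 with shScramble. The log2 fold changes were −3.38 (SE 0.25, adjusted p = 1.2e-07) and −5.29 (SE 0.28, adjusted p = 1.44e-09), and no shFLI1 library reached a control. Its paralog NSG1 had 143, 172 and 208 with shFLI1 at 24 h, against 301, 413, 223, 236 and 267 with shScramble (log2 −0.70 ± 0.20, adjusted p = 0.00844, with 0.0520 without shFLI1 replicate 1). At 48 h NSG1 had 386, 438 and 345 with shFLI1, against 369.6, 504, 285, 317 and 321 with shScramble, within the control range and not called. CNIH2, the cornichon partner of AMPA receptors, was not called and averaged 118 ± 22.1 with shFLI1 and 159.6 ± 37.0 with shScramble at 48 h.

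**Figure D3:**
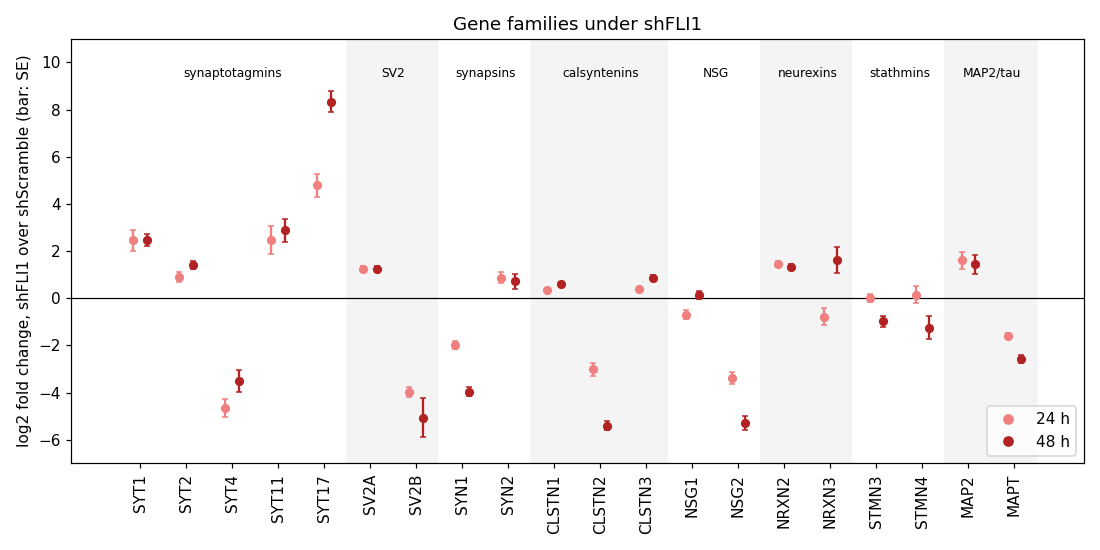
Points show the log2 fold change of shFLI1 over shScramble at 24 h (light) and 48 h (dark) with its standard error for 8 gene families. Among the synaptotagmins, the SV2 proteins, the calsyntenins and the MAP2 and tau pair, 1 relative was called lower and another higher at both times, as for SV2A (1.24 at 48 h) and SV2B (−5.07).

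The effect of shFLI1 differed between 48 h and 24 h for 13 of the 35 members (fold change at 48 h minus that at 24 h, each against its own shScramble group), 7 higher and 6 lower, which is 37.1% of them beside 16.7% of all tested genes (7.22% higher, 9.44% lower). Falls deepened for CLSTN2 (−2.40 ± 0.35, adjusted p = 2.8e-05), SYN1 (−1.97 ± 0.26, adjusted p = 6.72e-06), NSG2 (−1.91 ± 0.37, adjusted p = 0.000642), TUBB3 (−1.13 ± 0.28, adjusted p = 0.00516) and MAPT (−0.98 ± 0.22, adjusted p = 0.00258), and STMN3 was called lower at 48 h and not at 24 h (−1.01 ± 0.29, adjusted p = 0.0156). Rises grew for SYT17 (3.54 ± 0.67, adjusted p = 0.000507), DCX (1.27 ± 0.33, adjusted p = 0.00871) and CLSTN3 (0.49 ± 0.15, adjusted p = 0.0225), and the change of SNAP25 was larger at 48 h (1.33 ± 0.28, adjusted p = 0.00127). SHISA9 was less reduced at 48 h than at 24 h (1.92 ± 0.46, adjusted p = 0.00445), and NSG1 was lower at 24 h and not at 48 h (0.84 ± 0.27, adjusted p = 0.0323). Of these, the CLSTN3 difference lost its call without shFLI1 replicate 1 at 24 h or at 48 h (adjusted p = 0.0739 and 0.0786), and that of NSG1 in 9 of the 16 recomputations that each left out 1 library (highest adjusted p 0.117). That of NRXN3 (2.41 ± 0.69, adjusted p = 0.0161) was lost without shFLI1 replicate 2 at 24 h (0.0669) or replicate 3 at 48 h (0.0781). With edgeR on recovered reads those of SYT17 and SHISA9 were lost (0.151 and 0.0560), and that of SHISA9 also with a pseudocount of 8 (0.0900).

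Fewer members were called with the CHD4 hairpins than with shFLI1, and most of those were lower. With shCHD4#1 at 24 h, 1 member was higher and 3 lower, 11.4% of them, where 11.3% of all tested genes were called (5.21% higher, 6.14% lower). With shCHD4#2 at 24 h, none was higher and 8 were lower, 22.9% against 11.1% of all genes (4.05% higher, 7.01% lower). At 48 h, shCHD4#1 gave 2 higher and 6 lower, 22.9% against 28.4% of all genes (12.9% higher, 15.5% lower). shCHD4#2 at 48 h gave none higher and 16 lower, 45.7% against 37.9% of all genes (17.5% higher, 20.3% lower), and 10 lower without its replicate 2. In the authors' deposited table none was lower with either hairpin at 24 h. Of all genes there, 63 of 28607 were lower with shCHD4#1 and 88 of 27919 with shCHD4#2 at that time. The same table had 4 members lower with shCHD4#1 at 48 h, beside 331 of 29295 genes. With shCHD4#2 at 48 h it had 10, beside 838 of 26543 genes. An alternative fit took the replicate number as a block over all groups, shFLI1 included. With the replicate number as a block the 24 h counts were 3 higher with shCHD4#1 (SYT2 and also STX1A, adjusted p = 0.0133, and INA, 0.0493) and 11 lower with shCHD4#2 (also GAP43, 0.0301, MAPT, 0.0409, and CLSTN2, 0.00523). Calls over all 21025 genes rose as well. Higher with shCHD4#1 were 1326 with the block and 1095 without it, and lower with shCHD4#2 were 1809 and 1474. That block also called NRXN2 lower (0.0268) in place of SYT11 with shCHD4#1 at 24 h, and STX1A higher with shCHD4#1 at 48 h (0.0124). The 12 Ewing sarcoma markers, FLI1 among them, were lower in 12 of 12 with shCHD4#2 and in 4 of 12 with shCHD4#1 at 48 h. The part of this in the members' falls was not tested.

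Members lower with both hairpins at one time were C1QL1 at 24 h and SYT11, TUBB3, CNIH2, NSG2 and C1QL1 at 48 h, beside 1.46% and 6.24% of all tested genes lower with both hairpins at those times. No member was higher with both, beside 1.65% of all genes at 24 h and 5% at 48 h. C1QL1 had 70.2, 33.7 and 45.7 normalised counts with shCHD4#1 and 57.9, 40 and 72.7 with shCHD4#2 at 24 h, against 95.4, 105, 115, 86.5 and 118 with shScramble. At 48 h C1QL1 had 34.9, 13.6 and 51.4 with shCHD4#1 and 58.9, 19.9 and 37.9 with shCHD4#2, against 112, 143, 122, 146 and 146 with shScramble. No library of either hairpin reached the controls, and the 48 h log2 fold changes were −2.15 (SE 0.37, adjusted p = 0.000684) and −1.88 (SE 0.37, adjusted p = 0.00119). The 24 h calls (−1.10 ± 0.25, adjusted p = 0.0118 with shCHD4#1, −0.89 ± 0.25, adjusted p = 0.0362 with shCHD4#2) ended without shCHD4#1 replicate 2 (adjusted p = 0.0957), and for shCHD4#2 without its replicate 1 or 2 or shScramble replicate 1, 2, 3 or 5 (0.0509 to 0.225).

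SYT11 had 0.831, 3.89 and 0.988 normalised counts with shCHD4#1 and 2.85, 0 and 1.05 with shCHD4#2 at 48 h, against 8.93, 10.3, 17.3, 14.9 and 20.7 with shScramble. All 6 knockdown libraries were below all controls, with 6 and 4 reads against 72, and the log2 fold changes were −2.50 (SE 0.48, adjusted p = 0.00153) and −2.89 (SE 0.48, adjusted p = 0.000339). The 48 h call with shCHD4#1 was not made in the authors' deposited table (log2 −2.16, adjusted p = 0.138). At 24 h SYT11 had 0, 4.32 and 1.99 with shCHD4#1 and 3.22, 1.90 and 4.41 with shCHD4#2, against 3.71, 4.86, 23.3, 11.6 and 18.1 with shScramble, so the groups overlapped. The 24 h call with shCHD4#1 (log2 −2.13 ± 0.59, adjusted p = 0.0318) ended with the replicate block (adjusted p = 0.0507), without shCHD4#1 replicate 1 (log2 −1.46, 0.155) or 3 (0.0653), without shScramble replicate 3, 4 or 5 (0.0596 to 0.0720) and with edgeR on recovered reads (0.0521).

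CNIH2 had 40.7, 24.3 and 43.5 normalised counts with shCHD4#1 and 49.4, 14.5 and 33.7 with shCHD4#2 at 48 h, against 175, 208, 116, 169 and 129.8 with shScramble (log2 −2.12 ± 0.33, adjusted p = 0.000368 and −2.39 ± 0.33, adjusted p = 8.58e-05). At 24 h CNIH2 had 93.7, 64.8 and 75.4 with shCHD4#1 and 65.2, 40 and 71.6 with shCHD4#2, against 142, 159, 101, 118 and 118 with shScramble, and was called with shCHD4#2 (−1.13 ± 0.22, adjusted p = 0.00407). Every knockdown library lay below every control at both times. NSG2 had 26.6, 38.9 and 34.6 with shCHD4#1 and 28.5, 16.3 and 29.5 with shCHD4#2 at 48 h, against 109.8, 113, 109.9, 117 and 159 with shScramble (log2 −1.84 ± 0.28, adjusted p = 0.000278 and −2.28 ± 0.28, adjusted p = 2.82e-05). At 24 h NSG2 had 96.3, 58.8 and 53.6 with shCHD4#1 and 71.6, 41.9 and 59.5 with shCHD4#2, against 111, 76.2, 114, 87.5 and 137 with shScramble. Its 24 h call with shCHD4#2 (−0.86 ± 0.25, adjusted p = 0.0414) ended without shCHD4#2 replicate 2 or 3 (adjusted p = 0.242 and 0.0789) or shScramble replicate 1, 3 or 5 (0.0742 to 0.0837).

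TUBB3 had 1617, 2055 and 2035 normalised counts with shCHD4#1 and 1067, 1335 and 963 with shCHD4#2 at 48 h, against 2643, 2333, 4447, 3766 and 4054 with shScramble. No knockdown library reached a control, and the log2 fold changes were −0.82 (SE 0.20, adjusted p = 0.00615) and −1.59 (SE 0.20, adjusted p = 2.97e-05). The call with shCHD4#1 was not made in the authors' deposited table (log2 −0.62, adjusted p = 1). At 24 h the values were 2539, 2289 and 2979 with shCHD4#1 and 1750.5, 1109 and 1585 with shCHD4#2, against 2504, 2689, 3520.1, 3544 and 4191 with shScramble, and TUBB3 was called with shCHD4#2 (−1.15 ± 0.17, adjusted p = 0.000764).

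Other members were called with 1 hairpin. With shCHD4#1 SYT2 was higher at 24 h and 48 h, where it averaged 1798 ± 125 with shCHD4#1 and 428 ± 71.2 with shScramble (log2 1.19 ± 0.21, adjusted p = 0.00232 and 2.08 ± 0.17, adjusted p = 2.09e-06). MAP2 was lower, at 12.2 ± 6.85 with shCHD4#1 and 51.1 ± 22.3 with shScramble at 48 h (log2 −1.99 ± 0.39, adjusted p = 0.00177), and its 24 h call (−1.22 ± 0.35, adjusted p = 0.0380) ended without shCHD4#1 replicate 2 or 3 or shScramble replicate 1, 2, 3 or 5 (adjusted p 0.0555 to 0.245). SYT17 with shCHD4#1 at 48 h had 10 reads against 2 with shScramble, a ratio per unit depth of 7.80 (interval 1.66 to 73.2). Its call there (log2 1.73 ± 0.44, adjusted p = 0.00954) ended with a pseudocount of 8 (log2 0.41, adjusted p = 0.103). It was not made in the authors' deposited table (log2 0.38). NEFH had 32 reads with shCHD4#1 and 4 with shScramble at 48 h, a ratio of 12.5 (interval 4.43 to 48.6). At 24 h it had 17 against 2, a ratio of 13.02 (interval 3.09 to 116.2), but 13 of the 17 were in shCHD4#1 replicate 3. These intervals cover counting error only, not the spread between libraries.

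With shCHD4#2 the genes that were lower at 48 h came from every role with a tested member except the SNAREs, the intermediate filaments and the RNA-binding proteins. HAP1 averaged 1967 ± 363 normalised counts with shCHD4#2 and 8167 ± 1148 with shScramble (log2 −2.06 ± 0.17, adjusted p = 1.37e-06), and it was lower at 24 h too (−0.77 ± 0.11, adjusted p = 0.000539). DCX averaged 149.8 ± 87.3 with shCHD4#2 and 463 ± 32.3 with shScramble at 48 h (log2 −1.79 ± 0.27, adjusted p = 0.000183), with −1.03 (SE 0.16, adjusted p = 0.000833) at 24 h. SYN1 averaged 138 ± 49.6 with shCHD4#2 and 359.8 ± 49.1 with shScramble (log2 −1.43 ± 0.20, adjusted p = 9.21e-05), and NSG1 149.8 ± 23.4 with shCHD4#2 and 359 ± 86.4 with shScramble (log2 −1.24 ± 0.18, adjusted p = 0.000113). ELAVL3 was lower at 24 h (−1.35 ± 0.24, adjusted p = 0.00240).

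Several of the shCHD4#2 calls at 48 h ended when 1 library was left out. Replicate 2 was the lowest of its group for SYN1, DCX, MAPT, CLSTN2, SV2A, SV2B, NRXN2, SHISA9 and HAP1. SV2B had 455, 265 and 475 normalised counts with shCHD4#2 at 48 h, all below every shScramble library. It was called lower in the authors' deposited table (log2 −2.69, adjusted p = 0.000447). Without shCHD4#2 replicate 2 the SV2B call made here ended (log2 −2.82 ± 0.83, adjusted p = 0.0153 with it, −2.55 and adjusted p = 0.0737 without). So did those of GAP43 (−1.39 with it, −1.18 without, 0.108), MAPT (−0.60 with it, −0.35 without, 0.0836), NRXN2 (−0.45 with it, −0.30 without, 0.106), CLSTN2 (−0.68 with it, −0.56 without, 0.0805), SHISA9 (−1.16 with it, −0.89 without, 0.111) and SV2A (−0.39 with it, −0.25 without, 0.215), each given as the log2 fold change with and without it and the adjusted p without it. These 6 were not called in the authors' deposited table either (adjusted p 0.324 to 1). CLSTN2, GAP43 and SHISA9 also lost their calls without replicate 3 (0.0679, 0.0990 and 0.0838), GAP43 without shScramble replicate 4 (0.0502) and SV2A without shScramble replicate 3, 4 or 5 (0.0535 to 0.0762). SV2A ended with the replicate block as well (0.129), and with that block NLGN1 was called lower with both hairpins at 48 h (shCHD4#1 0.0252, shCHD4#2 0.0149). The 24 h SV2B call with shCHD4#2 (−0.70 ± 0.20, adjusted p = 0.0356) ended without any 1 of the 3 shCHD4#2 libraries or shScramble replicate 1 or 4 (adjusted p 0.0616 to 0.133). SV2B with shCHD4#1 at 48 h had 1282, 1355 and 1742 normalised counts, against 1897, 3843, 2775, 2889.5 and 2616 with shScramble. It was not called where the spread was shared with shFLI1, whose replicate 3 stands apart (adjusted p = 0.445), and was called where only those 2 groups were fitted (log2 −0.92, adjusted p = 0.00954).

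The 2 CHD4 hairpins differed from each other in the members. At 24 h, 7 of 35 were higher with shCHD4#1 than with shCHD4#2 and none lower, 20% of them beside 9.62% of all tested genes (5.62% higher, 4% lower). At 48 h, 10 were higher and 1 lower, 31.4% beside 37.9% of all genes (19.2% higher, 18.6% lower). The members higher with shCHD4#1 at 24 h were ELAVL3 (1.25 ± 0.27, adjusted p = 0.00914), SYT2 (1.17 ± 0.23, adjusted p = 0.00609), DCX (1.00 ± 0.18, adjusted p = 0.00291), GAP43 (0.89 ± 0.26, adjusted p = 0.0451), TUBB3 (0.83 ± 0.20, adjusted p = 0.0153), SV2B (0.77 ± 0.22, adjusted p = 0.0391) and HAP1 (0.76 ± 0.12, adjusted p = 0.00179). Those of SV2B and GAP43 ended without single libraries (highest adjusted p 0.112 and 0.160), and so did that of TUBB3 (0.0802). HAP1 averaged 7280.3 ± 1851 normalised counts with shCHD4#1 and 1967 ± 363 with shCHD4#2 at 48 h (log2 difference 1.87 ± 0.19, adjusted p = 1.39e-05). SYT2 averaged 1798 ± 125 with shCHD4#1 and 460.3 ± 121 with shCHD4#2 (2.00 ± 0.19, adjusted p = 6.74e-06), DCX 434 ± 85.6 with shCHD4#1 and 149.8 ± 87.3 with shCHD4#2 (1.68 ± 0.31, adjusted p = 0.000803), and SYN1 317 ± 21.5 with shCHD4#1 and 138 ± 49.6 with shCHD4#2 (1.26 ± 0.23, adjusted p = 0.000712). NSG1 (1.06), CLSTN2 (0.82), STX1A (0.75), SHISA9 (1.05), TUBB3 (0.77) and MAPT (0.53) were the other members higher with shCHD4#1 at 48 h, and MAP2 was the member lower (−1.43). The calls of SHISA9, TUBB3, MAPT and MAP2 ended in at least 2 of the recomputations that left out 1 library (highest adjusted p 0.200, 0.0578, 0.185 and 0.0821). CHD4 itself had medians of 3126 with shCHD4#1 and 2727 with shCHD4#2 at 48 h, and FLI1 had medians of 3673 and 2945. The part of these levels in the differences between the hairpins was not tested.

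**Figure D4:**
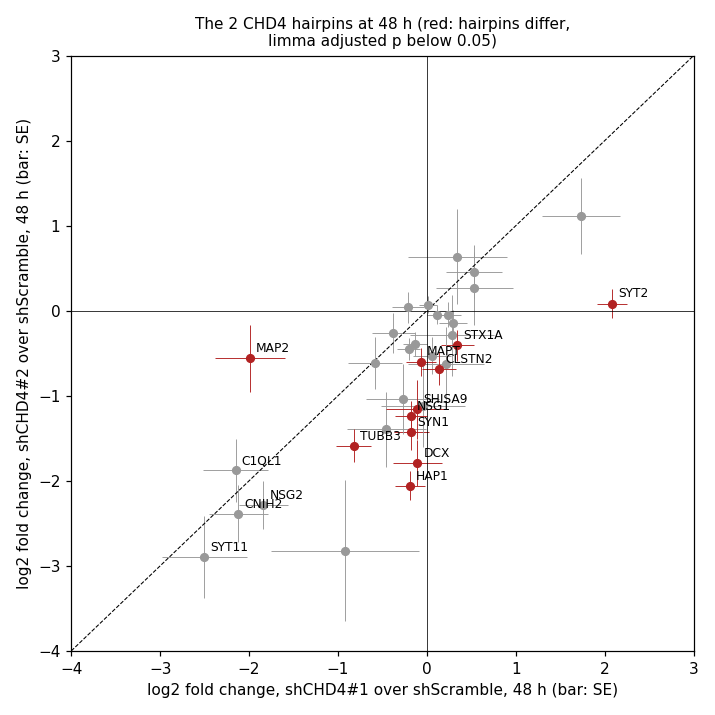
Each point is a member, placed by its log2 fold change with shCHD4#1 (horizontal) and shCHD4#2 (vertical) over shScramble at 48 h, with standard errors, and red marks a called difference between the hairpins. SYT11, CNIH2, C1QL1 and NSG2 lie at the lower left near the diagonal, while HAP1 (−2.06 with shCHD4#2) and DCX (−1.79 with shCHD4#2) lie below it.

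Set directly against the mean of both CHD4 hairpins, shFLI1 gave 14 members higher and 9 lower at 24 h, 65.7% beside 52.9% of all tested genes (28% higher, 24.8% lower), and 15 higher and 11 lower at 48 h, 74.3% beside 65.7% (32.9% higher, 32.8% lower). SYT11 showed a large difference, with means of 113 ± 42.5 normalised counts with shFLI1, 1.90 ± 1.73 with shCHD4#1 and 1.30 ± 1.44 with shCHD4#2 at 48 h (log2 5.58 ± 0.46, adjusted p = 1.07e-07). DCX differed by 3.89 (SE 0.27, adjusted p = 1.51e-08), MAP2 by 2.71 (SE 0.38, adjusted p = 1.86e-05), C1QL1 by 1.90 (SE 0.36, adjusted p = 0.000288) and CNIH2 by 1.83 (SE 0.32, adjusted p = 0.000165), all higher with shFLI1. CLSTN2 (−5.13 ± 0.19, adjusted p = 6.31e-11), HAP1 (−3.21 ± 0.17, adjusted p = 1.18e-09), SHISA9 (−3.39 ± 0.34, adjusted p = 6.72e-07) and SYN1 (−3.16 ± 0.20, adjusted p = 5.84e-09) were lower with shFLI1 than with the CHD4 hairpins. The 3 comparisons with shScramble share their control libraries, so their values for a member are not independent of each other.

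Other genes of the same machinery, listed by function, went both ways with shFLI1 at 48 h, as did all tested genes, of which 32.2% were higher and 31.7% lower. Of 62 tested genes of vesicle release (77 listed) 29 were higher (46.8%) and 15 lower (24.2%). SYT6 was −3.94 (SE 0.17, adjusted p = 2.57e-10) and CADPS2, a priming factor of dense-core vesicles, −1.96 (SE 0.14, adjusted p = 2.2e-08) on the log2 scale, while DNM3, a dynamin of vesicle retrieval, was 3.17 (SE 0.26, adjusted p = 9.8e-08). Of 37 tested cytoskeleton genes (39 listed) 15 were higher (40.5%) and 13 lower (35.1%), among them MAP7 (2.53 ± 0.17, adjusted p = 1.03e-08), CDK5R1 (−1.65 ± 0.13, adjusted p = 4.34e-08), BASP1 (−1.06 ± 0.085, adjusted p = 7.68e-08) and DPYSL5 (−1.40 ± 0.12, adjusted p = 1.42e-07). Of 46 tested adhesion and receptor auxiliary genes (68 listed) 15 were higher (32.6%) and 16 lower (34.8%), among them the phosphatase PTPRF (−2.33 ± 0.15, adjusted p = 8.16e-09), LRFN4 (−2.30 ± 0.15, adjusted p = 9.99e-09), ADGRB1 (−2.16 ± 0.19, adjusted p = 2.19e-07) and neuroligin NLGN2 (1.26 ± 0.14, adjusted p = 1.85e-06). Of 13 tested neuronal RNA-binding genes (15 listed) 5 were higher (38.5%) and 4 lower (30.8%), among them the splicing factors SRRM4 (−1.53 ± 0.11, adjusted p = 2.97e-08) and RBFOX1 (−1.61 ± 0.35, adjusted p = 0.00105), CELF3 (2.37 ± 0.31, adjusted p = 1.16e-05) and ELAVL1 (−0.59 ± 0.10, adjusted p = 0.000194). The median log2 fold changes of these 4 lists were 0.21, 0.10, 0.04 and 0.25, beside 0.0090 over all tested genes. With shCHD4#1 at 48 h, where 12.9% of all tested genes were higher and 15.5% lower, the counts higher and lower were 19 and 11 of 62 in the vesicle list, 9 and 9 of 37 in the cytoskeleton list, 12 and 5 of 46 in the adhesion list and 2 and 1 of 13 in the RNA-binding list. With shCHD4#2 at 48 h, where 17.5% of all tested genes were higher and 20.3% lower, they were 12 and 8 of 62, 4 and 16 of 37, 7 and 10 of 46, and 0 and 5 of 13 in the same order. The lists exclude the members.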

How the data were processed

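RNA was extracted with DNase treatment, and total RNA libraries were made with a stranded kit and sequenced as paired ends, per the labels' protocols. Per the submitters' processing notes the build was GRCh38, reads were handled with DESeq2 1.34.0, featureCounts 1.6.0, HISAT2 2.1.0, FastQC 0.11.7 and SAMtools 1.7 in an order not stated, and settings, annotation and strand were not given in the sources used here. Each deposited signal value is a normalised read count, that is reads divided by a size factor, and all values came out as whole reads (within 0.02 of a read) when multiplied back. The authors' deposited tables of comparisons hold log2 fold changes and p-values, and their adjusted p was exactly 1 for 140 of 195 values of the members. The smallest absolute log2 fold change called among those values was 0.92, while smaller changes were called here. The tables served only as an alternative. In the table for shFLI1 at 24 h the values fitted another comparison, so it was not used.

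Here limma 3.58.1 in R 4.3.3 was fitted with a trend to log2(normalised count + 1) of all 21025 genes with a mean of at least 10, each time point with its 4 groups, and the time difference over all 28 libraries. Tests were two-sided, adjusted by Benjamini-Hochberg over all these genes and called at 0.05. The pseudocount understates changes of low genes. The labels call the libraries biological replicates. Deviations of same-numbered libraries correlated at over 0.1 in 18 of 18 pairs among shScramble and the CHD4 hairpins (0.119 to 0.708). With shFLI1 they did so in 1 of 18 pairs (−0.15 to 0.103). The alternative fit with a replicate block used the number in every group, shFLI1 included, so no fit paired shScramble and the CHD4 hairpins alone. Same-numbered libraries of shScramble and the CHD4 hairpins are also of the same kind, so the correlations among them cannot tell pairing from library kind. Exon lengths and overlaps came from GENCODE 29, matched for 34232 genes. Ratios of reads carry exact binomial 95% intervals. Alternatives were edgeR 4.0.16 on recovered reads, TMM normalisation, median centring, a pseudocount of 8, no filter, only the groups compared, a replicate block, library kind as a term, the second kind alone, the authors' table and leaving out each library.

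The members and lists were chosen with earlier results of these data known. Values per library are given for members called with shFLI1 at an absolute log2 fold change of at least 2, called the same way with both CHD4 hairpins, or with estimates of opposite sign at 24 h and 48 h of shFLI1 and a called difference between them, and up to 4 genes with the smallest p are named per list. Some genes that this rule would name are not reported here.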

Additional observations from a re-analysis of the deposited data

Results flagged for a closer look

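Among 70 sets of 5 control libraries (35 genes at 2 times), 4 held a library far from the others, where chance gives about 1 in 20. SYT17 had 1.62 normalised counts in shScramble replicate 2 at 24 h and 1.79 in shScramble replicate 1 at 48 h, the highest in each group. Each of these was 2 reads, and the other controls of that time held 0. A single library with any read would be flagged there, so the rate of 1 in 20 does not hold for SYT17. DCX had 407 normalised counts in shScramble replicate 4 at 48 h, the lowest of its group, and NSG2 had 159 in shScramble replicate 5 at 48 h, the highest.

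The effect of shFLI1 differed between 48 h and 24 h, by a test of the difference itself (limma, 48 h minus 24 h on the log2 scale), for 13 members. The difference was 3.54 for SYT17, 2.41 for NRXN3, 1.92 for SHISA9, 1.33 for SNAP25, 1.27 for DCX, 0.84 for NSG1 and 0.49 for CLSTN3. It was −2.40 for CLSTN2, −1.97 for SYN1, −1.91 for NSG2, −1.13 for TUBB3, −1.01 for STMN3 and −0.98 for MAPT.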

How the results depend on the processing

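Of 164 called values of the members, recomputed 2967 times in all, none changed sign and 54 lost their call at least once. Leaving aside the authors' deposited table, which was not used for shFLI1 at 24 h, calls against shScramble held in every alternative run for 20 of 22 values with shFLI1 at 24 h and 22 of 26 at 48 h, for 1 of 4 with shCHD4#1 at 24 h and 7 of 8 at 48 h, and for 3 of 8 with shCHD4#2 at 24 h and 9 of 16 at 48 h. With that table counted, they held for 18 of 26 with shFLI1 at 48 h, where CLSTN1, CLSTN3, MAP2 and VAMP1 lost their call in that table alone, for 1 of 4 and 5 of 8 with shCHD4#1, and for 0 of 8 and 9 of 16 with shCHD4#2.

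The number of members higher with shCHD4#1 at 24 h was 3 with the replicate block, 3 with library kind as a term and 2 with the second kind of library alone, and the number lower was 1 with no filter, 1 with edgeR, 1 with only the groups compared, 1 with the second kind alone, 6 with library kind as a term and 0 in the authors' deposited table. The number lower with shCHD4#2 at 24 h was 5 with no filter, 3 with the second kind alone and 0 in the authors' deposited table. At 48 h the number higher with shCHD4#1 was 1 with a pseudocount of 8 and 4 with library kind as a term, and the number lower with shCHD4#2 was 10 in the authors' deposited table. The number higher with shCHD4#1 than with shCHD4#2 at 24 h was 12 with library kind as a term and 2 with the second kind alone. The cause was not tested.

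Leaving out 1 library gave 1 to 3 lower with shCHD4#1 at 24 h, 5 to 8 lower with shCHD4#2 at 24 h, 0 to 1 higher and 10 to 20 lower with shCHD4#2 at 48 h, 4 to 6 higher with shCHD4#1 than shCHD4#2 at 24 h and 0 to 1 lower at 48 h. The replicate block grouped shFLI1 libraries by number too, although their deviations correlated with same-numbered libraries at only −0.15 to 0.103. With that block the uncalled INA value with shFLI1 at 24 h turned from −0.25 to 0.13 (adjusted p = 0.706). The 48 h shFLI1 calls of STMN4 and NRXN3 ended with that block (adjusted p = 0.125 and 0.109). Precision was limited by 3 libraries per knockdown and, for STMN2, NEFL, NEFH, ELAVL4 and control SYT17, by a few reads.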
